A study of Arabidopsis thaliana with 24 samples.

Results

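Chlorophyll biosynthesis in Arabidopsis is represented here by 10 nuclear genes, taken by their locus names from the 33977 gene identifiers of the count data: *HEMA1* (AT1G58290), *GUN4* (AT3G59400), *CHLH* (AT5G13630), *CHLI1* (AT4G18480), *CHLD* (AT1G08520), *CRD1* (AT3G56940), *PORA* (AT5G54190), *PORB* (AT4G27440), *PORC* (AT1G03630) and *CAO* (AT1G44446). All 10 were found. Their transcripts were counted by 3′Tag-Seq in 24 libraries, with 3 replicates in each of 8 groups: the root and the shoot of *hy5-215* and of Col-0, at 28 °C and at 22 °C. *hy5-215* carries a mutant allele of *HY5*, a bZIP transcription factor of light signalling, in the Col-0 accession, and Col-0 is the wild type. Per the labels, seedlings of every group were 5 days old, grown in white light at 22 °C, and were then kept for a further 4 h in continuous white light at 28 °C or at 22 °C. The paper gives another age, a design text gives another duration, and the labels call hypocotyl what the paper describes as shoot (hypocotyl and cotyledon). The labels' genotype field gives all shoot libraries as wild type and all root libraries as *hy5*, in conflict with the sample titles, from which the genotype was taken. The replicates were described as biological by the study, and no source used here says how many seedlings were pooled for a library, so p-values measure the spread between these libraries.

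Chlorophyll is made in plastids by enzymes encoded in the nucleus. Glutamyl-tRNA is reduced to form 5-aminolevulinic acid, which is built up to protoporphyrin. Insertion of iron then leads to heme, and insertion of magnesium by Mg-chelatase leads to chlorophyll. Light is needed for the reduction of protochlorophyllide in flowering plants. Green cotyledons are the main site of the pathway in a seedling, and HY5 is known as one of the factors that bind promoters of light-regulated genes.

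Total counts ran from 2620219 to 3781032 in the 12 shoot libraries and from 1212281 to 3078290 in the 12 root libraries. The 10 genes together held 9191 to 17788 counts in a shoot library and 259 to 486 in a root library, so the root values are less precise. Levels are given in CPM (counts per 1000000 counts of a library, scaled with TMM over all 24 libraries). A 3′Tag-Seq count comes from one fragment near the end of a transcript and does not grow with gene length, so CPM values of different genes can be set side by side. *HY5* itself was counted in every library. In the root it averaged 13.6 CPM in *hy5-215* and 52.8 CPM in Col-0 at 22 °C, and 9.45 CPM in *hy5-215* and 49.2 CPM in Col-0 at 28 °C. In the shoot it averaged 20.8 CPM in *hy5-215* and 29.9 CPM in Col-0 at 22 °C, a difference that did not pass the test (log2 fold change −0.53, adjusted p 0.0513 by edgeR's quasi-likelihood test), and 12.4 CPM in *hy5-215* and 18.3 CPM in Col-0 at 28 °C (−0.57, edgeR adjusted p 0.213). Among 5 shoot markers (*RBCS1A*, *RBCS2B*, *LHCB1.1*, *LHCB2.1* and *RCA*), none was at 0 in a root library. Among the root markers, *NRT2.1* had at most 2 counts in any library, and *CASP1*, *CASP2*, *COBL9* and *EXPA7* were higher in the root than in the shoot in both genotypes at 22 °C by edgeR.

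In the shoot, *CRD1* and *CHLH* were the most abundant of the 10 transcripts in every group. *CRD1* (chr3:21076505-21078443, plus strand, 6 exons) encodes a subunit of the cyclase that closes the fifth ring of the chlorophyll precursor. It had 1739, 1740 and 1753 CPM in *hy5-215* at 28 °C and 1751, 1774 and 1779 CPM in *hy5-215* at 22 °C, against 1430, 1334 and 1214 CPM in Col-0 at 28 °C and 1440, 1239 and 1343 CPM in Col-0 at 22 °C. *CHLH* (chr5:4387307-4392429, minus strand, 5 exons), also named *GUN5*, encodes the large porphyrin-binding subunit of Mg-chelatase. It averaged 1321 ± 94.1 CPM in *hy5-215* at 28 °C and 1842 ± 108 CPM in *hy5-215* at 22 °C, against 1040 ± 136 CPM in Col-0 at 28 °C and 1393 ± 62.9 CPM in Col-0 at 22 °C (SD, n = 3 each). In Col-0 at 22 °C the order below them was *PORB* (487 ± 21.9 CPM), *CHLI1* (446 ± 13.3 CPM), *HEMA1* (408 ± 54.2 CPM), *GUN4* (272 ± 43.3 CPM), *CHLD* (259 ± 7.88 CPM), *CAO* (199 ± 15.0 CPM), *PORC* (148 ± 21.3 CPM) and *PORA* (3.43 ± 0.459 CPM). Means of *CRD1* and *CHLH*, of *CHLI1* and *HEMA1*, and of *GUN4* and *CHLD* lay within the larger of their SDs in that group.

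**Figure D1:**
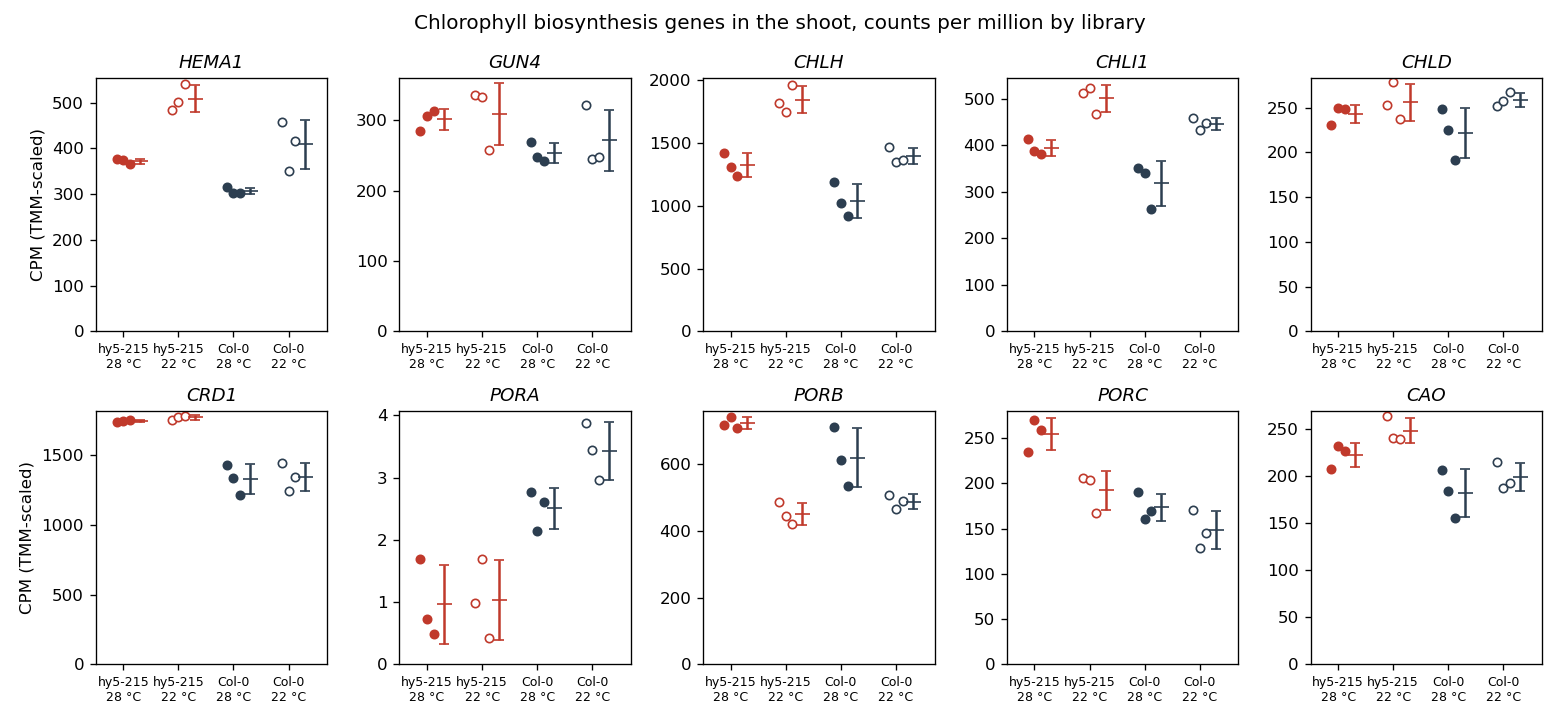
CPM (TMM-scaled, y axis from 0) of the 10 genes in the 12 shoot libraries, with *hy5-215* (red) left of Col-0 (dark blue) and 28 °C (filled) left of 22 °C (open); points are libraries, and the bar beside them is the mean with its SD (n = 3). *HEMA1*, *CHLH* and *CHLI1* lie lower and *PORB* lies higher at 28 °C in both genotypes, *CRD1* lies higher in *hy5-215* at both temperatures, and *PORA* stays under 4 CPM.

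*PORA*, *PORB* and *PORC* encode the light-dependent protochlorophyllide oxidoreductases. *PORA* is known as the form of dark-grown seedlings, whose transcript declines in light, while *PORB* and *PORC* act in green tissue. *PORA* had 4, 2 and 1 counts in the *hy5-215* shoot at 28 °C and 2, 5 and 1 counts at 22 °C, against 6, 5 and 6 counts in the Col-0 shoot at 28 °C and 9, 8 and 7 counts at 22 °C. The *hy5-215* and Col-0 counts did not overlap at 22 °C or at 28 °C, but *PORA* was too low for the filter on low counts in all 14 comparisons and was not tested. In the root it had 2, 0 and 0 counts in *hy5-215* and 0, 0 and 1 counts in Col-0 at 28 °C, and 0 in all 6 root libraries at 22 °C. A count of 0 allows up to 3 counts, or 0.781 to 2.02 CPM in these root libraries, so a low level was not detectable at this depth. Within its last 400 transcript bases *PORA* matched *PORB* at 82.9% over 129 bases, ending 271 bases from the 3′ end. Whether any read of *PORA* came from *PORB* was not examined.

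The promoters of *CRD1*, *CAO* and *PORB* are shown because they hold ACGTG, which the paper lists among the motifs bound by HY5. That of *CHLH* is shown because this gene differed most between the genotypes. Each is the 250 bases before the annotated start in RefSeq's TAIR10.1, 5′ to 3′ on the strand of the gene. The motifs searched on both strands were the G-box CACGTG, its shorter core ACGTG (which every G-box also holds), the evening element AAATATCT and the I-box core GATAAG. Capitals mark any match of these motifs. The shorter ACGT, which the paper searched as the letters shared by its HY5 motifs, was not counted here. It also stands in the windows of *GUN4*, *CHLI1* and *CHLD*.
*CRD1* (chr3:21076255-21076504, plus strand): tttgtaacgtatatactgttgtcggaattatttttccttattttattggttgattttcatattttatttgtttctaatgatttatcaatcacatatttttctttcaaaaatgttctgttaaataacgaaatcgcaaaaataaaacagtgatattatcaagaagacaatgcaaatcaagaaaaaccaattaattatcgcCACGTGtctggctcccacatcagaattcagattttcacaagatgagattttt
*CAO* (chr1:16851272-16851521, minus strand): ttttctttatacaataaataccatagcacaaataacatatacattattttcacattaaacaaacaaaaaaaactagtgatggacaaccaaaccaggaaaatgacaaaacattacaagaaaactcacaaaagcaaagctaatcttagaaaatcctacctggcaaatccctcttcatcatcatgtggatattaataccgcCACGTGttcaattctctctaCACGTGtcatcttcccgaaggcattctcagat
*PORB* (chr4:13725296-13725545, plus strand): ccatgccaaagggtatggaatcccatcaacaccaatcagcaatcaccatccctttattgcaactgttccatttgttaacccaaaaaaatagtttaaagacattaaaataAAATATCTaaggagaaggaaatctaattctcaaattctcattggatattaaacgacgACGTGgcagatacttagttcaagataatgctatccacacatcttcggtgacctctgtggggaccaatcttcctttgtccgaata
*CHLH* (chr5:4392430-4392679, minus strand): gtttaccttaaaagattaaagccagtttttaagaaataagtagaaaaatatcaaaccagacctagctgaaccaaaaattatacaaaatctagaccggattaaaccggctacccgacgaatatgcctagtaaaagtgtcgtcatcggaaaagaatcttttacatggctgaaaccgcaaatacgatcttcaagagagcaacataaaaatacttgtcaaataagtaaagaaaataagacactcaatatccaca
The G-box stood 47 to 52 bases before the start in *CRD1*, and in *CAO* both there and at 27 to 32 bases. Thus 2 of the 10 promoters held it, against 6.49% of 27443 promoters of the same length. ACGTG without the full G-box stood 80 to 84 bases before the start in *PORB*, making 3 of 10 against 22.9% of all promoters. The evening element was found in *PORA* (172 to 179 bases before the start) and *PORB* (134 to 141 bases), 2 of 10 against 4.79%. GATAAG was found in *PORA* alone (89 to 94 bases before the start), 1 of 10 against 12.3%. None of these letters was present in the *CHLH* window. A match is a description of the letters and not of binding.

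At 28 °C, *HEMA1* of 5-aminolevulinic acid formation and *CHLH* and *CHLI1* of magnesium insertion were lower and *PORB* of the light-dependent reductase was higher in the shoot, by less than 2-fold and in both genotypes, while *CHLD* and *GUN4* did not pass. The 3 that fell did so by 0.34 to 0.49 on the log2 scale in *hy5-215* and in Col-0. *PORC* rose in *hy5-215*. None of the 9 tested genes changed 2-fold. In *hy5-215*, 5 of 9 tested genes passed an adjusted p of at most 0.05 (2 higher and 3 lower), where 16.9% of all tested genes passed (7.54% higher and 9.32% lower). In Col-0, 4 of 9 passed (1 higher and 3 lower), where 25% of all tested genes passed (11.5% higher and 13.5% lower). With the 2-fold cutoff used to call DEGs, the count was 0 in both genotypes by edgeR and by DESeq2, against 3.59% of all genes in *hy5-215* and 5.31% in Col-0. At an unadjusted p under 0.05 without a fold cutoff, edgeR gave 5 of 9 in each genotype, against 29% of all tested genes in *hy5-215* and 35.6% in Col-0.

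*HEMA1* (chr1:21623700-21626402, minus strand, 3 exons) encodes the glutamyl-tRNA reductase of green tissue, the first committed enzyme of the pathway. It had 376, 374 and 365 CPM at 28 °C, against 483, 502 and 541 CPM at 22 °C, in the *hy5-215* shoot. In the Col-0 shoot it had 315, 302 and 303 CPM at 28 °C, against 459, 351 and 416 CPM at 22 °C. Groups of the same genotype did not overlap, and the log2 fold change was −0.45 ± 0.09 in *hy5-215* (SE, edgeR adjusted p 7.04e-04) and −0.42 ± 0.10 in Col-0 (edgeR adjusted p 0.00315).

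*CHLH* had 1421, 1308 and 1235 CPM at 28 °C, against 1819, 1748 and 1959 CPM at 22 °C, in the *hy5-215* shoot. In the Col-0 shoot it had 1185, 1019 and 916 CPM at 28 °C, against 1465, 1350 and 1364 CPM at 22 °C. Every library at 28 °C lay under every library of the same genotype at 22 °C, with log2 fold changes of −0.47 ± 0.09 in *hy5-215* (edgeR adjusted p 3.54e-04) and −0.43 ± 0.10 in Col-0 (edgeR adjusted p 0.00204).

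*CHLI1* (chr4:10201672-10203469, minus strand, 3 exons) encodes the main ATPase subunit of Mg-chelatase. It had 414, 387 and 381 CPM at 28 °C, against 512, 522 and 466 CPM at 22 °C, in the *hy5-215* shoot. In the Col-0 shoot it had 350, 341 and 262 CPM at 28 °C, against 458, 432 and 447 CPM at 22 °C. The groups did not overlap, and the log2 fold change was −0.34 ± 0.09 in *hy5-215* (edgeR adjusted p 0.00832) and −0.49 ± 0.10 in Col-0 (edgeR adjusted p 8.77e-04). Its last 400 transcript bases matched those of its copy *CHLI2* at 77.7% over 166 bases, and that match was the longest found. In the annotation *AT4G18465* on the opposite strand overlaps *CHLI1*.

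The other Mg-chelatase subunit, *CHLD*, and *GUN4*, which encodes a porphyrin-binding activator of Mg-chelatase, did not pass. *CHLD* averaged 243 ± 10.2 CPM at 28 °C and 256 ± 20.9 CPM at 22 °C in *hy5-215*, and 221 ± 28.1 CPM at 28 °C and 259 ± 7.88 CPM at 22 °C in Col-0 (SD, n = 3 each). Its log2 fold change was −0.07 ± 0.09 in *hy5-215* (edgeR adjusted p 0.671) and −0.23 ± 0.10 in Col-0 (edgeR adjusted p 0.105). In Col-0 the *CHLD* groups did not overlap, and *CHLD* passed without 28 °C replicate 1 (−0.31, edgeR adjusted p 0.0136). *GUN4* averaged 301 ± 14.6 CPM at 28 °C and 309 ± 44.0 CPM at 22 °C in *hy5-215*, and 253 ± 14.1 CPM at 28 °C and 272 ± 43.3 CPM at 22 °C in Col-0. *CRD1* stayed within the spread between replicates in each genotype, with log2 fold changes of −0.01 ± 0.08 in *hy5-215* (edgeR adjusted p 0.940) and −0.02 ± 0.09 in Col-0 (edgeR adjusted p 0.908).

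*PORB* (chr4:13725546-13727440, plus strand, 5 exons) had 717, 742 and 708 CPM at 28 °C, against 485, 446 and 421 CPM at 22 °C, in the *hy5-215* shoot. In the Col-0 shoot it had 711, 612 and 535 CPM at 28 °C, against 508, 464 and 490 CPM at 22 °C. The groups did not overlap in either genotype. The log2 fold change was 0.69 ± 0.09 in *hy5-215* (edgeR adjusted p 3.71e-06), the largest among the 9 tested genes in the shoot, and 0.34 ± 0.10 in Col-0 (edgeR adjusted p 0.0139). The Col-0 call was lost without 28 °C replicate 2 (edgeR adjusted p 0.0603), 22 °C replicate 2 (0.0876) or 22 °C replicate 3 (0.0619). *PORB* shares 71 bases at its 3′ end with *AT4G27450* on the opposite strand, and the strand setting of the counting is not given in the sources used here. *AT4G27450*, named after its values were seen, also rose at 28 °C. It rose by 0.69 ± 0.10 in the *hy5-215* shoot (350 to 439 counts, against 203 to 292 at 22 °C). In the Col-0 shoot it rose by 1.33 ± 0.14 (330 to 607 counts, against 171 to 206). Whether reads of the 2 genes were told apart where they overlap is not known. Shorter overlaps at the 3′ end were found for *CAO* (36 bases, with *AT1G44414* on the opposite strand) and *CHLD* (42 bases, with *AT1G08530* on the same strand).

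*PORC* (chr1:907523-909650, plus strand, 5 exons) had 235, 270 and 259 CPM at 28 °C, against 206, 204 and 167 CPM at 22 °C, in the *hy5-215* shoot, where it rose by 0.41 ± 0.10 (edgeR adjusted p 0.00543). In the Col-0 shoot it had 191, 161 and 169 CPM at 28 °C, against 171, 129 and 145 CPM at 22 °C, which overlapped (0.22 ± 0.11, edgeR adjusted p 0.154). *CAO*, which encodes the oxygenase that makes chlorophyll b, averaged 222 ± 12.7 CPM at 28 °C and 248 ± 13.3 CPM at 22 °C in *hy5-215*, and 182 ± 25.5 CPM at 28 °C and 199 ± 15.0 CPM at 22 °C in Col-0, and did not pass (edgeR adjusted p 0.302 in *hy5-215* and 0.422 in Col-0). In *hy5-215* the *PORC* call was lost without 28 °C replicate 2 (edgeR adjusted p 0.0577), and that of *CHLI1* without 28 °C replicate 2 (0.0621) or 22 °C replicate 2 (0.0659).

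**Figure D2:**
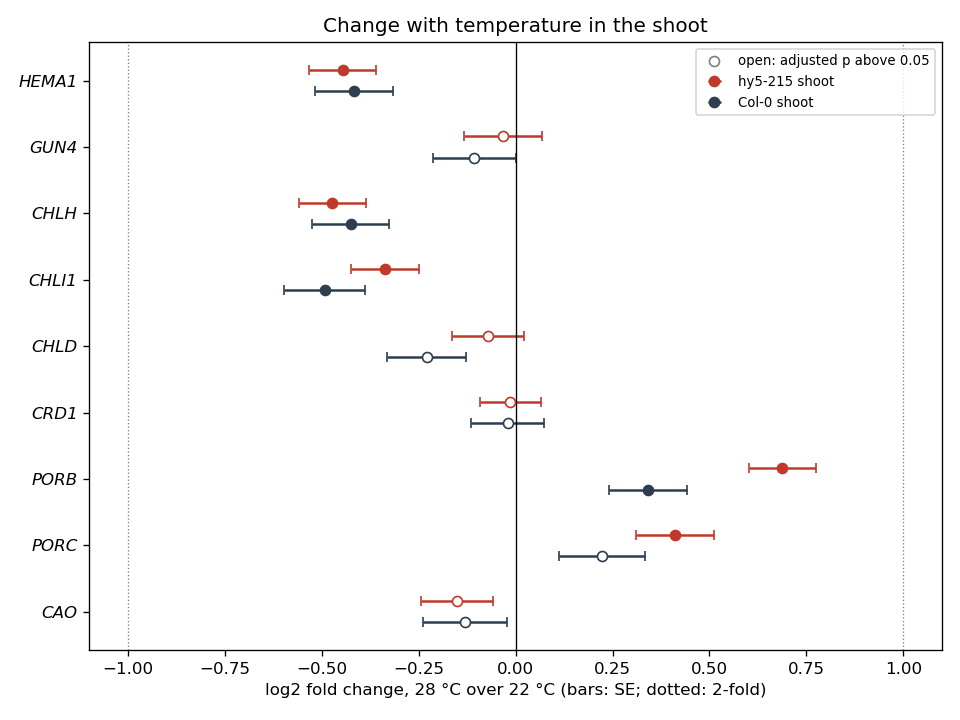
Log2 fold change, 28 °C over 22 °C, of the 9 tested genes in the shoot of *hy5-215* (red) and Col-0 (dark blue); bars are SEs, open points have an edgeR adjusted p above 0.05, and dotted lines mark 2-fold. The 2 genotypes gave the same sign for all 9 genes, with *PORB* at 0.69 in *hy5-215* and 0.34 in Col-0, and no point reaches 2-fold.

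No difference between the genotypes in the shoot response passed. In the genotype by temperature test, 0 of 9 tested genes passed by edgeR or DESeq2, where 1.03% of all tested genes passed, and 1 was under an unadjusted p of 0.05 (10.9% of all tested genes). That gene was *PORB*, whose log2 fold change was 0.34 ± 0.14 higher in *hy5-215* than in Col-0 (edgeR adjusted p 0.311). The other 8 (*HEMA1*, *GUN4*, *CHLH*, *CHLI1*, *CHLD*, *CRD1*, *PORC* and *CAO*) had differences of −0.06 to 0.18. Without the Col-0 library of replicate 1 at 28 °C, in which *PORB* was highest, the difference was 0.46 (edgeR adjusted p 0.0444). The summed level of the 5 shoot markers moved with temperature as well. It was 37941 to 39127 CPM at 28 °C, against 50653 to 53441 CPM at 22 °C, in the *hy5-215* shoot, and 24334 to 31502 CPM at 28 °C, against 35564 to 41345 CPM at 22 °C, in the Col-0 shoot. Of the 5 markers, 3 fell in *hy5-215* and 3 fell while 1 rose in Col-0. In bulk tissue, fewer cells of a type and less RNA per cell cannot be told apart, and the part of the markers in the fall of *HEMA1*, *CHLH* and *CHLI1* was not tested.

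Some genes of other steps of tetrapyrrole metabolism were also lower at 28 °C in the shoot. Of 16 further genes from 5-aminolevulinic acid to protoporphyrin, 14 were tested. None passed in *hy5-215* by edgeR (3 at an unadjusted p under 0.05), and 4 fell in Col-0. Those 4 were *HEME2* (−0.54 ± 0.10), *HEMG1* (−0.49 ± 0.14), *HEMA2* (−0.56 ± 0.20) and *HEMC* (−0.29 ± 0.10). Of 6 further genes of the magnesium branch, 1 fell in *hy5-215* and 3 fell in Col-0. *CHLG*, which encodes chlorophyll synthase, fell in both (−0.43 ± 0.10 in *hy5-215* and −0.76 ± 0.13 in Col-0), and *DVR*, the divinyl reductase gene, and *CHLI2* fell in Col-0 (−0.79 ± 0.13 and −0.36 ± 0.13). On the heme side, 2 of 7 tested genes fell in *hy5-215* and 4 of 7 in Col-0. The ferrochelatase gene *FC1* was among them, with −0.79 ± 0.27 in *hy5-215* and −1.15 ± 0.31 in Col-0, as was *FC2*, with −0.41 ± 0.10 in *hy5-215* and −0.30 ± 0.11 in Col-0. *HO2* and *HY2* of the same list fell in Col-0 (−0.68 ± 0.20 and −0.62 ± 0.19). Among 9 tested genes of chlorophyll breakdown, *CLH2* fell in *hy5-215* (−1.0 ± 0.33) and *PAO* rose in Col-0 (0.39 ± 0.13). These lists were not tested for a difference between the genotypes as lists. Gene by gene, no member of the 4 lists passed the genotype by temperature test. The median log2 fold change over the 9 tested members was −0.07 in *hy5-215* and −0.13 in Col-0, against 0.01 over all tested genes in both.

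In the *hy5-215* shoot some of the 10 genes were expressed at a higher level than in Col-0. At 22 °C, 5 of 9 tested genes rose (*HEMA1*, *CHLH*, *CRD1*, *PORC* and *CAO*) and none fell, where 5.11% of all tested genes were higher and 9.35% passed in either direction. At 28 °C, 3 of 9 rose (*CHLH*, *CRD1* and *PORC*) and none fell, where 3.07% of all tested genes were higher and 5.86% passed. The differences were 1.24-fold to 1.47-fold among those that passed, and none reached 2-fold by edgeR or DESeq2 (6 of 9 at 22 °C and 8 of 9 at 28 °C had an unadjusted p under 0.05, against 20.5% of all tested genes at 22 °C and 18.8% at 28 °C). DEGs made up 1.73% of all tested genes at 22 °C and 1.82% at 28 °C. At 28 °C all 9 tested genes had a positive log2 fold change, from 0.14 to 0.56. Their median was 0.29 at 28 °C and 0.31 at 22 °C, against 0.01 and 0.00 over all tested genes.

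*CRD1* did not overlap between the genotypes at either temperature, as its values above show. Its log2 fold change was 0.39 ± 0.08 at 22 °C (edgeR adjusted p 3.50e-04) and 0.40 ± 0.09 at 28 °C (edgeR adjusted p 0.0106). *CHLH* did not overlap either, with 0.39 ± 0.08 at 22 °C (edgeR adjusted p 3.03e-04) and 0.35 ± 0.10 at 28 °C (edgeR adjusted p 0.0492). The *CHLH* call at 28 °C was lost by DESeq2 (adjusted p 0.0792), with library size alone (edgeR adjusted p 0.0795) and with a mean of at least 10 counts (0.0506). *PORC* rose by 0.37 ± 0.10 at 22 °C (edgeR adjusted p 0.00948), where 1 *hy5-215* library at 167 CPM lay under the highest Col-0 library at 171 CPM, and by 0.56 ± 0.11 at 28 °C (edgeR adjusted p 0.00226), where the groups did not overlap. *HEMA1* rose at 22 °C by 0.31 ± 0.08 (edgeR adjusted p 0.0117), and at 28 °C its difference was 0.29 ± 0.09 (edgeR adjusted p 0.0814). *CAO* (chr1:16848308-16851271, minus strand, 9 exons) had 264, 241 and 240 CPM in *hy5-215*, against 216, 188 and 193 CPM in Col-0, at 22 °C, and rose by 0.31 ± 0.09 (edgeR adjusted p 0.0123). At 28 °C it had 208, 232 and 227 CPM in *hy5-215*, against 207, 185 and 156 CPM in Col-0 (0.29 ± 0.11, edgeR adjusted p 0.142). *GUN4*, *CHLI1*, *CHLD* and *PORB* did not pass at either temperature. *CHLD* had the smallest difference at 22 °C (−0.02 ± 0.08), and *PORB* had −0.12 ± 0.08 at 22 °C and 0.23 ± 0.10 at 28 °C.

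Several of these small differences rested on single libraries. At 22 °C, *CHLH* and *CRD1* passed without any single library, while the count of 5 became 2 without Col-0 replicate 2 or 3 (*HEMA1*, *PORC* and *CAO* lost), 3 without *hy5-215* replicate 1 (*PORC* and *CAO* lost), 4 without *hy5-215* replicate 2 (*PORC* lost), and 6 without Col-0 replicate 1 or *hy5-215* replicate 3, where *GUN4* passed (edgeR adjusted p 0.0254 and 0.00856). *PORC* was also lost by DESeq2 (adjusted p 0.0589), and *CAO* in the joint fit of the 12 shoot libraries (edgeR adjusted p 0.05004). With library size alone, 3 of 9 passed at 22 °C, *CHLH* and *CRD1* as higher and *PORB* as lower in *hy5-215*. At 28 °C, *PORC* passed without any single library, while the count of 3 became 1 without Col-0 replicate 2 or *hy5-215* replicate 2 (*CHLH* and *CRD1* lost), 2 without Col-0 replicate 3 or *hy5-215* replicate 1 (*CHLH* lost), and 6 without Col-0 replicate 1 (*CHLI1*, *PORB* and *CAO* gained). The shoot markers moved the same way: all 5 rose in *hy5-215* at 22 °C (median log2 fold change 0.44) and 3 of 5 at 28 °C (median 0.37). Their part in the higher level of the members was not tested. Of the further genes, *CHLM* (0.27 ± 0.08), the Mg-protoporphyrin methyltransferase gene, rose at 22 °C as 1 of 6 of the magnesium branch. *HEME2* (0.41 ± 0.11) rose at 28 °C as 1 of 14 of the common steps. Among 9 tested breakdown genes, *CLH1* rose at 22 °C (0.56 ± 0.13) and at 28 °C (0.81 ± 0.15), *PPH*, the pheophytinase gene, fell at both (−0.51 ± 0.14 and −0.49 ± 0.14), *NYC1* rose at 22 °C (0.31 ± 0.08) and *PAO* fell at 28 °C (−0.54 ± 0.14). No tested gene of the heme branch passed at either temperature by edgeR, with 4 of 7 at 22 °C and 1 of 7 at 28 °C under an unadjusted p of 0.05.

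In the root the 9 tested genes were far less expressed than in the shoot, and *PORA*, with 0 counts in the root at 22 °C, was not tested. The summed level of the 10 genes was 107 ± 11.4 CPM in the *hy5-215* root and 6076 ± 29.5 CPM in the *hy5-215* shoot at 22 °C, and 174 ± 20.2 CPM in the Col-0 root and 4956 ± 320 CPM in the Col-0 shoot (SD, n = 3 each). All 9 tested genes were called lower in the root in both genotypes at 22 °C, where 33.7% of all tested genes in *hy5-215* and 32.2% in Col-0 passed as lower. The log2 fold changes, root over shoot, ran from −7.10 (*GUN4*) to −3.86 (*CHLD*) in *hy5-215* and from −5.78 (*GUN4*) to −3.67 (*HEMA1*) in Col-0. Scaling by library size alone moved the median of all genes by 0.68 in *hy5-215* and 0.47 in Col-0 and left all 9 calls in place. *HEMA1* and *CHLD* kept the highest share of their shoot level, *HEMA1* 6.91% in *hy5-215* and 7.82% in Col-0, and *CHLD* 7.08% in each. *CHLH* was at 0.853% in *hy5-215* and 3.38% in Col-0, and *CRD1* was at 0.844% in *hy5-215* and 2.30% in Col-0. The 5 shoot markers were at 0.574% to 0.789% in *hy5-215* and 1.23% to 2.58% in Col-0, a smaller share in *hy5-215* for each of them.

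**Figure D3:**
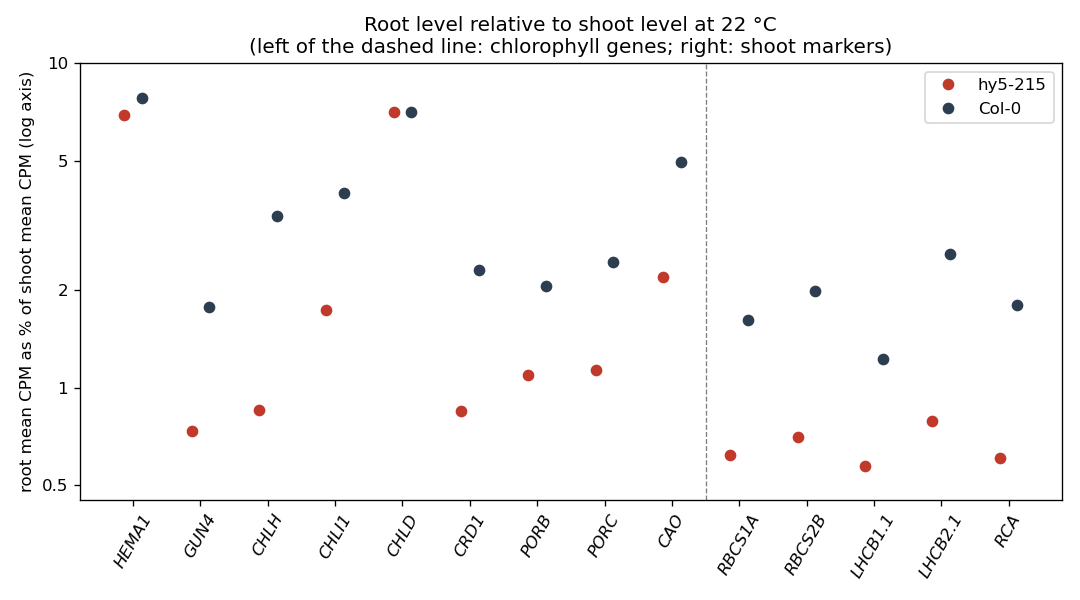
Mean root CPM as a percentage of mean shoot CPM at 22 °C (log axis) for the 9 tested chlorophyll genes and 5 shoot markers, in *hy5-215* (red) and Col-0 (dark blue). *HEMA1* and *CHLD* lie at 6.91% to 7.82% in both genotypes, while *CHLH* lies at 0.853% in *hy5-215* and 3.38% in Col-0 and the markers lie lower in *hy5-215* than in Col-0.

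In the root *CHLH* was lower in *hy5-215* than in Col-0 at both temperatures, whereas in the shoot it was higher. *CHLH* had 13, 18.8 and 15.3 CPM (35, 68 and 44 counts) in the *hy5-215* root, against 54.1, 45.6 and 41.7 CPM (115, 91 and 62 counts) in the Col-0 root, at 22 °C. At 28 °C it had 9.38, 17.4 and 14.9 CPM in the *hy5-215* root, against 33.9, 30.4 and 36.8 CPM in the Col-0 root. The genotypes did not overlap at either temperature. *CHLH* fell 2.98-fold in *hy5-215* at 22 °C (log2 fold change −1.57 ± 0.20, edgeR adjusted p 2.87e-06) and 2.41-fold at 28 °C (−1.27 ± 0.20, edgeR adjusted p 5.85e-05). It passed in every alternative fit and without any single library, with log2 fold changes of −1.73 to −1.45 at 22 °C and −1.49 to −1.03 at 28 °C when 1 library was left out. No annotated gene overlaps *CHLH*, and blastn found no match of its last 400 transcript bases in another gene.

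At 22 °C, 3 of 8 tested genes were DEGs, all lower in *hy5-215*, where 2.89% of all tested genes were DEGs of that direction and 5.78% were DEGs of either. *CHLI1* had 5.19, 10.8 and 10.1 CPM in *hy5-215*, against 22.1, 13.5 and 17.5 CPM in Col-0, with no overlap (−1.0 ± 0.30, edgeR adjusted p 0.0289). *CRD1* had 15.2, 15.0 and 14.6 CPM in *hy5-215*, against 20.7, 27.6 and 44.4 CPM in Col-0, with no overlap (−1.02 ± 0.25, edgeR adjusted p 0.0073). Both lay just past the 2-fold cutoff. *CHLI1* was lost without Col-0 replicate 1 (−0.80, edgeR adjusted p 0.181), without *hy5-215* replicate 1 (−0.75, 0.115) and by DESeq2 (adjusted p 0.0594). *AT4G18465*, which overlaps *CHLI1* on the opposite strand, had 13 to 46 counts in *hy5-215*, where *CHLI1* had 14 to 39. In Col-0 it had 9 to 21 counts, where *CHLI1* had 26 to 47, and it did not pass (0.11 ± 0.37, edgeR adjusted p 0.900). Whether reads of these genes were told apart is not known. *CRD1* was lost without Col-0 replicate 3 (−0.68, edgeR adjusted p 0.0697). With library size alone 1 of the 3 stayed a DEG, and with the replicate block or no filter on low counts 2 did. *CRD1* shares 147 bases at its 3′ end with *SIP2;1* on the opposite strand, which had 44 to 137 counts in the root libraries, against 31 to 104 for *CRD1*, and did not differ past the threshold at 22 °C (0.14 ± 0.19, edgeR adjusted p 0.726).

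*PORB* and *CAO* were also lower in every *hy5-215* root library at 22 °C without passing in the main fit. By edgeR's likelihood ratio test *PORB* passed (adjusted p 0.0384), as it did in the joint fit of the 12 root libraries (edgeR adjusted p 0.0499). *PORB* had 5.19, 4.71 and 4.87 CPM in *hy5-215*, against 10.3, 7.52 and 12.1 CPM in Col-0 (−1.0 ± 0.36, edgeR adjusted p 0.0734), and its neighbour *AT4G27450*, with 131 to 281 counts in *hy5-215* and 210 to 512 in Col-0, fell by 1.39 on the log2 scale. *CAO* had 5.56, 5.54 and 5.22 CPM in *hy5-215*, against 8.0, 9.53 and 12.1 CPM in Col-0 (−0.83 ± 0.35, edgeR adjusted p 0.138). *GUN4*, with 5 to 9 counts in *hy5-215* and 7 to 10 in Col-0, had −1.06 ± 0.46 (edgeR adjusted p 0.156). Scaled, it had 1.85, 2.49 and 2.44 CPM in *hy5-215*, against 4.70, 5.01 and 4.71 CPM in Col-0, with no overlap. *HEMA1* and *CHLD* overlapped between the genotypes, with 0.15 ± 0.21 and 0.00 ± 0.24. *HEMA1* had 33.0, 29.6 and 42.8 CPM in *hy5-215*, against 34.3, 23.1 and 38.3 CPM in Col-0, and *CHLD* had 14.8, 18.3 and 21.2 CPM in *hy5-215*, against 14.6, 19.6 and 20.8 CPM in Col-0. *PORC*, with 6 to 8 counts in *hy5-215* and 4 to 12 in Col-0, was not tested. Its scaled values did not overlap (2.22, 2.22 and 2.09 CPM in *hy5-215*, against 5.65, 2.51 and 2.69 CPM in Col-0).

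At 28 °C, *CHLH* was the 1 DEG among 8 tested genes, where 1.7% of all tested genes were DEGs lower in *hy5-215* and 4.84% were DEGs. *CRD1* had 8.08, 21.3 and 21.5 CPM in *hy5-215*, against 25.3, 23.0 and 33.0 CPM in Col-0 (−0.69 ± 0.25, edgeR adjusted p 0.0691). It passed without the 2-fold cutoff by edgeR's likelihood ratio test (adjusted p 0.0484), with no filter on low counts (edgeR adjusted p 0.00973) and with the replicate block (0.0163). *CHLI1* had 9.12, 16.1 and 11.1 CPM in *hy5-215*, against 9.87, 13 and 11.7 CPM in Col-0, and overlapped (0.09 ± 0.25). *HEMA1* (0.10 ± 0.19), *CHLD* (0.37 ± 0.20), *PORB* (0.14 ± 0.30), *GUN4* (−0.09 ± 0.49) and *CAO* (−0.11 ± 0.31) overlapped as well, and *PORA* and *PORC* were not tested. The median over the 8 tested genes was −1.0 at 22 °C and 0.00 at 28 °C.

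**Figure D4:**
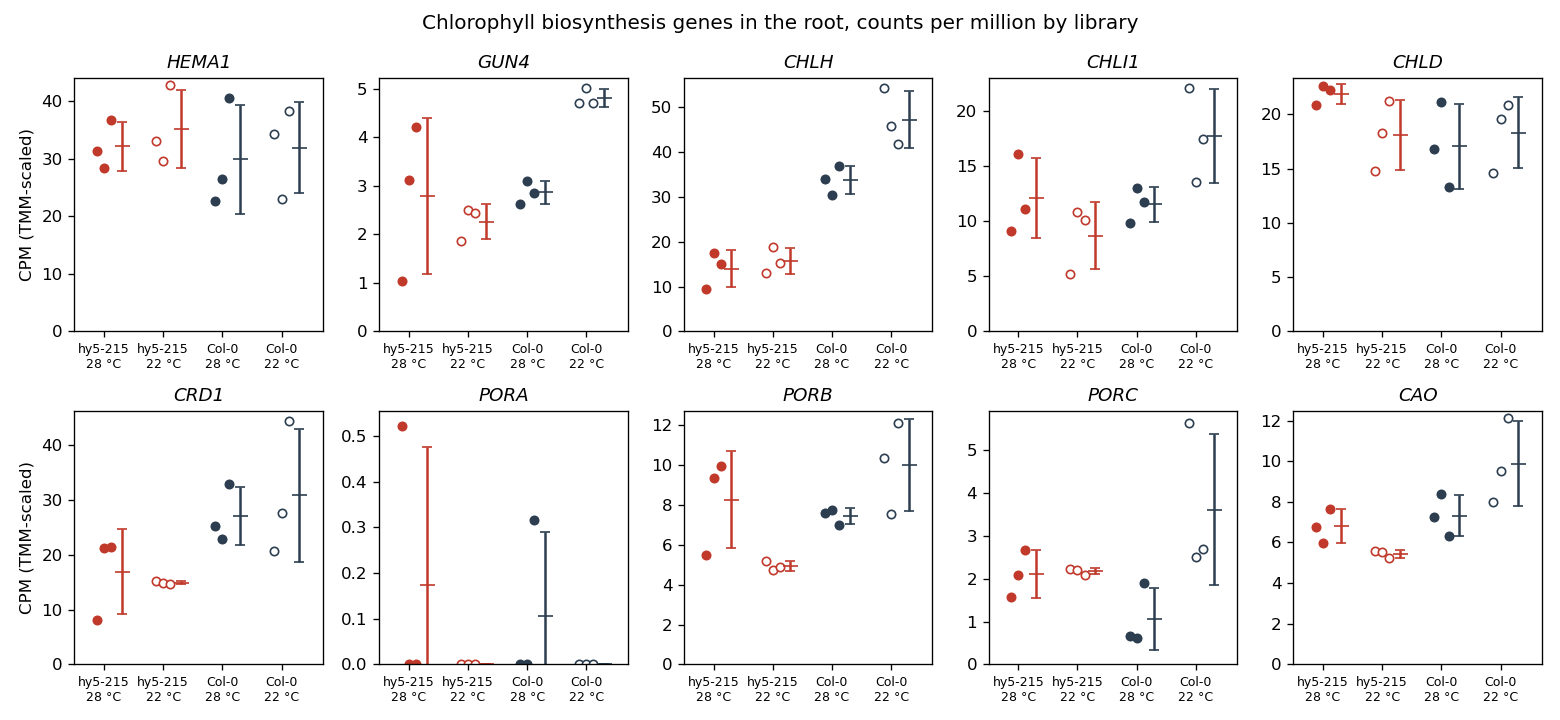
CPM (TMM-scaled, y axis from 0) of the 10 genes in the 12 root libraries, drawn as in the plot of shoot levels: *hy5-215* (red) left of Col-0 (dark blue), 28 °C filled and 22 °C open, mean and SD beside the points (n = 3). *CHLH* lies at 9.38 to 18.8 CPM in *hy5-215* and 30.4 to 54.1 CPM in Col-0, whereas *HEMA1* and *CHLD* overlap between the genotypes.

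The shoot markers were lower in the *hy5-215* root at 22 °C as well. All 5 fell, with log2 fold changes of −1.09 to −0.76, and their summed level was 275 to 358 CPM in *hy5-215* and 559 to 670 CPM in Col-0. Of the root markers, *CASP1* rose to 145 ± 2.45 CPM in *hy5-215*, against 65.8 ± 12.1 CPM in Col-0, and *CASP2* to 52.4 ± 3.84 CPM in *hy5-215*, against 24.6 ± 2.77 CPM in Col-0. *COBL9* and *EXPA7* did not pass, with log2 fold changes of 0.05 ± 0.32 and −0.24 ± 0.26. The changes of *CHLI1* (−1.0) and *CRD1* (−1.02) lay in the range of those of the shoot markers, and that of *CHLH* (−1.57) lay below it. The part of the markers in the changes of *CHLI1*, *CRD1* and *CHLH* was not tested. At 28 °C the shoot markers summed to 264 to 500 CPM in *hy5-215* and 315 to 417 CPM in Col-0, and 0 of 5 passed by edgeR (1 at an unadjusted p under 0.05). Of the further genes of the magnesium branch, 2 of 4 tested fell in *hy5-215* at both temperatures. Over all tested genes without a fold cutoff, 1831 of 15628 passed at 22 °C (883 lower) and 2035 of 16514 at 28 °C (868 lower). *CHLG* had 7, 4 and 4 counts in *hy5-215*, against 22, 23 and 17 in Col-0, at 22 °C (−2.71 ± 0.43), and 0, 4 and 7 counts in *hy5-215*, against 36, 18 and 26 in Col-0, at 28 °C (−2.92 ± 0.55). *CHLP*, the geranylgeranyl reductase gene that supplies the phytyl tail, had −1.50 ± 0.21 at 22 °C and −0.94 ± 0.20 at 28 °C. No gene of the common steps passed at either temperature, of 13 tested at 22 °C (2 at an unadjusted p under 0.05) and 14 at 28 °C (1). On the heme side, *HO1*, the main heme oxygenase gene, rose in *hy5-215* at 22 °C (0.88 ± 0.17) and at 28 °C (0.39 ± 0.12), and *UPM1*, of the siroheme branch, rose at 28 °C (0.78 ± 0.15). No tested breakdown gene passed in the root by edgeR at either temperature (1 of 4 at 22 °C and 0 of 5 at 28 °C at an unadjusted p under 0.05).

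The difference between root and shoot was tested directly at 22 °C, as the *hy5-215* against Col-0 log2 fold change of the root minus that of the shoot. Of 9 tested genes, 4 passed, all negative, where 6.48% of all tested genes passed. They were *CHLH* (−1.97 ± 0.19, edgeR adjusted p 7.33e-10), *CRD1* (−1.39 ± 0.23, edgeR adjusted p 2.80e-05), *CHLI1* (−1.16 ± 0.26, edgeR adjusted p 0.00232) and *CAO* (−1.14 ± 0.29, edgeR adjusted p 0.00997). *CAO* was lost without replicate 3 of the Col-0 root (edgeR adjusted p 0.0539). *CHLD* (0.02 ± 0.23) and *HEMA1* (−0.17 ± 0.21) showed the smallest differences, and *GUN4* (−1.24 ± 0.44), *PORB* (−0.88 ± 0.29) and *PORC* (−1.14 ± 0.47) did not pass. All 5 shoot markers passed in the same direction (−1.69 to −1.09), and their part in the result was not tested. *CHLP* (−1.62 ± 0.20), *CHLG* (−2.53 ± 0.36) and *FLU* (−0.74 ± 0.23), which encodes a negative regulator of 5-aminolevulinic acid formation, passed among the further genes, and *HO1* passed with the opposite sign (0.83 ± 0.19).

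**Figure D5:**
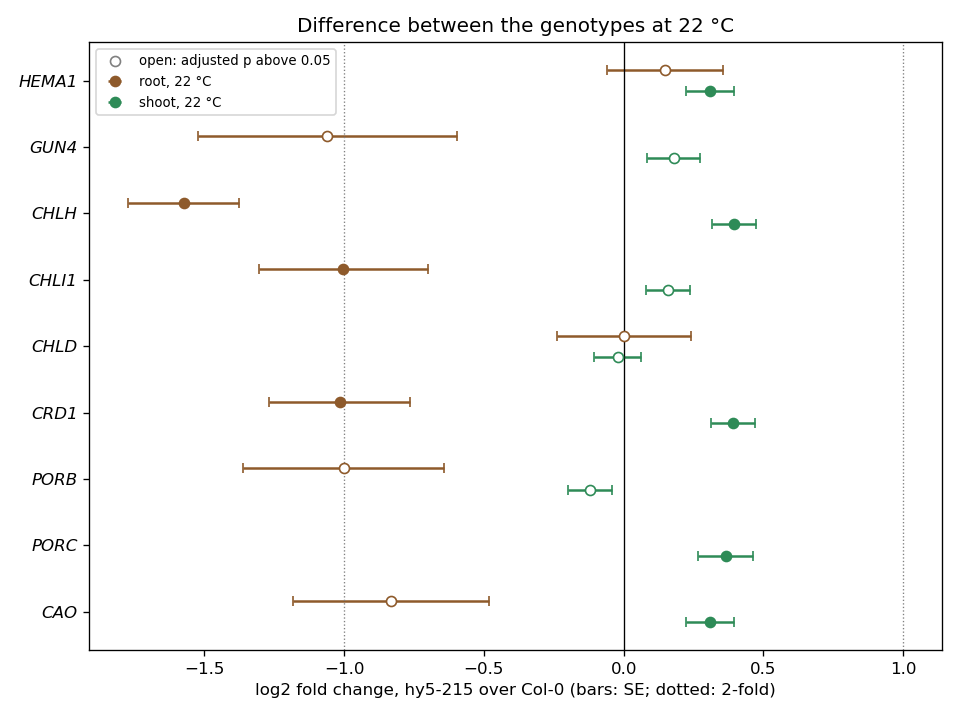
Log2 fold change, *hy5-215* over Col-0, at 22 °C in the root (brown) and the shoot (green); bars are SEs, open points have an edgeR adjusted p above 0.05, dotted lines mark 2-fold, and *PORC* was not tested in the root. *CHLH* lies at −1.57 in the root and 0.39 in the shoot, and *CHLD* lies at 0.00 in the root and −0.02 in the shoot.

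In the root no member passed between 28 °C and 22 °C. In *hy5-215*, 0 of 7 tested genes passed (6.05% of all tested genes passed, and 1 of the 7 had an unadjusted p under 0.05, against 19.4% of all), and in Col-0, 0 of 8 (6.33% of all, and 2 of the 8 unadjusted, against 20% of all). DESeq2 also gave 0 in each genotype. *CHLH* had 33.9, 30.4 and 36.8 CPM at 28 °C, against 54.1, 45.6 and 41.7 CPM at 22 °C, in the Col-0 root, which did not overlap (−0.49 ± 0.17, edgeR adjusted p 0.0872). The SE of that change was 0.17 to 0.24 for *CHLH* in the 2 genotypes, against 0.09 to 0.10 in the shoot. *CHLI1* had −0.62 ± 0.26 in Col-0 (edgeR adjusted p 0.183) and 0.46 ± 0.29 in *hy5-215* (edgeR adjusted p 0.412). *PORB* had 0.72 ± 0.34 in *hy5-215* (edgeR adjusted p 0.232) and −0.41 ± 0.32 in Col-0 (edgeR adjusted p 0.534). *HEMA1*, *CHLD*, *CRD1* and *CAO* had log2 fold changes of −0.14 to 0.30 in *hy5-215* and −0.40 to −0.08 in Col-0, *GUN4* was tested in Col-0 alone (−0.74 ± 0.44), and *PORA* and *PORC* were not tested. The markers moved in the Col-0 root as well: 4 of 5 shoot markers fell at 28 °C (median of the 5 −0.79, summed level 315 to 417 CPM at 28 °C, against 559 to 670 CPM at 22 °C). Of 5 tested root markers 4 rose there and none fell, with *CASP1* and *CASP2* among those that rose (0.61 ± 0.15 and 0.74 ± 0.18). In the *hy5-215* root 0 of 5 shoot markers passed by edgeR (1 at an unadjusted p under 0.05). Their part in the values of *CHLH* and *CHLI1* was not tested. None of 8 tested genes passed the genotype by temperature test in the root by edgeR or DESeq2 (1.41% of all tested genes passed), and *CHLI1* (1.09 ± 0.40) and *PORB* (1.15 ± 0.46) had an unadjusted p under 0.05, as did 10.5% of all tested genes. *HEMA1*, *GUN4*, *CHLH*, *CHLD*, *CRD1* and *CAO* had differences of −0.04 to 0.98. Of the 5 shoot markers 2 passed that test, both positive, and all 5 had an unadjusted p under 0.05.

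In Col-0 the temperature response of root and shoot differed past the threshold for 1 of 9 tested genes, where 2.78% of all tested genes passed. This was *PORC* (−1.99 ± 0.54, edgeR adjusted p 0.0384), with the shoot values given above. In the root it had 2, 2 and 6 counts at 28 °C, against 12, 5 and 4 counts at 22 °C. These counts overlapped, but the scaled values did not (0.658, 0.621 and 1.90 CPM, against 5.65, 2.51 and 2.69 CPM). Without each single library in turn the edgeR adjusted p ran from 0.0175 to 0.278, and it was above 0.05 without any 1 of 8 of the 12 libraries: shoot replicates 2 and 3 at 22 °C (0.0708 and 0.0749), all 3 shoot replicates at 28 °C (0.0582, 0.0591 and 0.0599), root replicate 1 at 22 °C (0.278) and root replicates 1 and 2 at 28 °C (0.107 and 0.136). The other 8 tested genes (*HEMA1*, *GUN4*, *CHLH*, *CHLI1*, *CHLD*, *CRD1*, *PORB* and *CAO*) had differences of −0.75 to 0.34. Of the 5 shoot markers, 2 passed the same test as lower (*RBCS2B* and *LHCB2.1*) and all 5 were negative (−1.38 to −0.01), and their part in the value of *PORC* was not tested.

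Across the 12 shoot libraries, the 5 genes outside the 10 whose log2 CPM followed the mean of the 9 higher members most closely were *ATPC1* (Pearson r 0.966), *CSP41A* (0.966), *emb2184* (0.956), *AT3G61870* (0.955) and *PSI-P* (0.955), of 13194 genes compared. *ATPC1* encodes a subunit of the chloroplast ATP synthase. These values describe libraries that share their groups, tissue composition and scaling.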

How the data were processed

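3′Tag-Seq libraries were made from total RNA of 24 samples. The authors used FastQC for read quality, HISAT2 for alignment and HTSeq with TAIR10 for counting, and called DEGs with edgeR. Tool versions and the strand setting are not given in the sources used here. The deposited values are raw counts without normalization. Of 33977 identifiers, 32548 matched TAIR10.1 locus tags, and the other 1429 were kept under their locus name. The 10 members and the further gene lists were chosen with earlier results of these data known.

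Counts were tested in R 4.3.3 with edgeR 4.0.16 (TMM scaling; filterByExpr at a count of 10 and a summed count of 15; the quasi-likelihood test, with Benjamini-Hochberg adjustment over all tested genes). "Rose" and "fell" mean an adjusted p of at most 0.05, and DEGs also changed 2-fold or more. For interactions, no fold was required. Temperature and genotype comparisons used 6 libraries each, tissue comparisons 6 and interactions 12. The SE is the absolute log2 fold change divided by the square root of F and is approximate. All members were named in every comparison, some by a range, and of each further list at most 4 genes with the smallest adjusted p among those that passed. Overlapping genes were chosen after the data were seen. Genes most like the members were ranked by Pearson correlation of log2(CPM + 1) over the 12 shoot libraries among genes with a mean of at least 20 counts. Motifs were searched by exact letters, and 3′ ends were compared with blastn 2.17.0+.

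The alternatives left out each library or the fold cutoff, scaled by library size alone, dropped the low-count filter or set it to a mean of 10 counts, blocked on the replicate number, fitted both genotypes of a tissue together, or used edgeR's likelihood ratio test or DESeq2 1.42.0. All fits were tested on simulated data. Replicates of a group differed by more than counting noise (chi-square per degree of freedom up to 4.84). One root marker gene is not reported here.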

Additional observations from a re-analysis of the deposited data

Results flagged for a closer look

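At 22 °C the difference between *hy5-215* and Col-0 was not the same in root and shoot for 4 of the 10 genes, by the test of that difference. The root minus shoot difference of the log2 fold change was −1.97 for *CHLH* (edgeR adjusted p 7.33e-10), −1.39 for *CRD1* (2.80e-05), −1.16 for *CHLI1* (0.00232) and −1.14 for *CAO* (0.00997). In Col-0 the change with temperature differed between root and shoot for *PORC*, by −1.99 (edgeR adjusted p 0.0384), on 2 to 12 counts in a root library. It was above an adjusted p of 0.05 without any 1 of 8 of the 12 libraries (up to 0.278), and 2 of 5 shoot markers passed in the same direction.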

How the results depend on the processing

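The number of members called kept its main value within 1.5 times except as follows. With no fold cutoff, the shoot gave 5 in *hy5-215* and 4 in Col-0 between 28 °C and 22 °C, and 5 at 22 °C and 3 at 28 °C between the genotypes, where the main count was 0 each time. With library size alone, the root at 22 °C gave 1 in place of 3, since *CHLI1* and *CRD1* lay at the 2-fold cutoff. Leaving out single libraries, the count ran from 0 to 1 for the shoot genotype by temperature test (main 0), from 0 to 1 for the Col-0 tissue by temperature test (main 1), from 3 to 5 for the genotype by tissue test (main 4) and from 2 to 3 for the root genotypes at 22 °C (main 3). Library size alone moved the median of all genes from 0.00 to −0.10 between the shoot genotypes at 22 °C and from −0.02 to 0.12 in the genotype by tissue test. Between the shoot genotypes at 22 °C it left 3 of 9 members past the threshold (*CHLH*, *CRD1* and *PORB*, which was lower). Of 1713 values of single members under an alternative, 1645 kept their side of the threshold, 42 fell under it, 22 came past it, and 4 moved by more than their SE while under it. No value past the threshold changed its sign, and 75 values under it did, 62 of them with a library left out. Same-numbered libraries were not treated as pairs in the main fits. Correlations of their deviations ran from −0.08 to 0.18, and no comparison had all of them over 0.1. All 6 of 6 libraries correlated best with their own number between temperatures in the Col-0 shoot and the *hy5-215* root. The same held between root and shoot of *hy5-215* at 22 °C. In the other comparisons 0 to 4 of 6 did, so whether the numbers pair the libraries is not settled. For the 2 shoot genotypes at 28 °C, deviations of same-numbered libraries correlated at −0.01 to 0.18 and 4 of 6 libraries correlated best with their own number. A replicate block gave 8 of 9 members past the threshold there (main 3), with adjusted p of 0.0127 for *HEMA1*, 0.0356 for *GUN4*, 0.00609 for *CHLI1*, 0.0484 for *PORB* and 0.0269 for *CAO*, and left the count of DEGs at 0. In the root it gave 2 DEGs at 22 °C (main 3), and *CRD1* also passed at 28 °C (edgeR adjusted p 0.0163). In the root, 2 to 12 counts of *PORC* and *GUN4* limit what can be seen.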
